A study of Mus musculus with 3 samples.

Results

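Krüppel-like factors were followed as a family of 10 genes, Klf2, Klf3, Klf4, Klf5, Klf6, Klf7, Klf9, Klf10, Klf13 and Klf15, taken by their gene symbols from the 32285 genes counted in each library. All 10 had a row in all 3 libraries. The libraries were droplet single-cell RNA profiles of the ascending thoracic aorta of male C57BL/6J mice at postnatal day 45, dissociated with elastase and collagenase. The WT library held wild type littermates. The mgR library held homozygous Fbn1mgR/mgR mice, which make too little fibrillin-1 throughout the body and are used as a model of Marfan syndrome with aortic aneurysm and dissection. The mgR-LOS library held mice of the same genotype given losartan, a blocker of the angiotensin II type I receptor, at 0.6 g/L in drinking water from postnatal day 16. Aortas of each arm were pooled into 1 library before sequencing, so no comparison here had a replicate, every interval below is a 95% interval for counting error only, and no test between conditions was possible. The labels do not say whether the mgR mice of this library drank vehicle.

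Krüppel-like factors are zinc finger transcription factors that bind GC-rich and CACCC elements. Klf2 and Klf4 are induced in endothelium by laminar blood flow through the MEK5-ERK5-MEF2 pathway and hold down inflammatory adhesion molecules, and Klf4 in vascular smooth muscle opposes myocardin and accompanies the loss of contractile genes known as phenotype switching. Klf6 and Klf10 respond early to injury and TGF-β, Klf5 accompanies smooth muscle growth, Klf15 opposes it and is induced by glucocorticoids, Klf9 is also glucocorticoid-induced, and Klf2, Klf4, Klf6 and Klf10 belong to the genes that cells switch on quickly when stressed.

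Promoter sequence was at hand for 8 of the 10 members (RefSeq, GRCm38.p6), all but Klf5 and Klf10. The windows of Klf2, Klf4 and Klf15 are shown because these members carried the endothelial, the smooth muscle and the losartan comparisons below. Each window is 200 bases long and runs 5′ to 3′ on the gene's strand from 250 to 51 bases before the RefSeq start. The windows shown lie upstream of the annotated gene. Among the others, the Klf3 window overlaps its annotated gene and the Klf7 window lies inside it. The windows are chr8:72318812-72319011 (plus strand) for Klf2, chr4:55532526-55532725 (minus strand) for Klf4 and chr6:90462326-90462525 (plus strand) for Klf15. Capitals mark 3 motifs searched on both strands: the GC box GGGCGG, which reads CCGCCC when on the other strand, the E-box CACGTG and the MEF2 consensus.
Klf2: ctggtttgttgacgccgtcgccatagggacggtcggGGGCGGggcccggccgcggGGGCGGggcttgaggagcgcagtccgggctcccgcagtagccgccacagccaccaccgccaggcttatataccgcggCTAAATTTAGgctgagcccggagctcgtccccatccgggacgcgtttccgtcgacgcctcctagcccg
Klf4: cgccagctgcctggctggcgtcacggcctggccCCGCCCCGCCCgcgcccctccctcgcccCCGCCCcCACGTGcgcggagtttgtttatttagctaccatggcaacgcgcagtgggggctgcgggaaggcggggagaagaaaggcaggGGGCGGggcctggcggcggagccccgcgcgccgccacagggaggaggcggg
Klf15: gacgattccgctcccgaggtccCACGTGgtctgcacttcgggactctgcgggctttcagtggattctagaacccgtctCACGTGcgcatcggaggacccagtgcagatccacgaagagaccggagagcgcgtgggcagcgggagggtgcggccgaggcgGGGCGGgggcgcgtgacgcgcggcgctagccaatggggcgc
Klf2 was the only member of the 8 with a MEF2 match, 118 to 109 bases before its start, and 2.42% of 32851 promoter windows of the same length held one. Klf15 held 2 E-boxes and Klf4 held 1, against 4.34% of windows with any. The GC box was common, found in 24.6% of windows, with 4 matches in Klf4, 2 in Klf2 and 1 in Klf15. None of the 8 windows held the serum response element core (CArG), which 1.16% of windows held, or AGAACA, the core of the glucocorticoid element, which 13.2% held. These letter matches describe the windows and were not tested as binding sites.

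The files held 7858 barcodes for WT, 10657 for mgR and 14663 for mgR-LOS, with 83338726, 123956320 and 121436873 UMIs (unique molecular identifiers, each counting 1 captured transcript). After limits on genes and mitochondrial UMIs, 5361, 8076 and 12721 cells remained, with medians of 13636, 12410.5 and 8334 UMIs per cell. Fbn1, the mutated gene, stood at 361 counts per 1000000 UMIs (CPM) in WT, 150 in mgR and 117 in mgR-LOS. Cells were classed by the UMIs of 8 marker genes per class. The gates gave 3655, 3118 and 7878 SMCs, 106, 212 and 175 ECs, 1305, 2362 and 3039 fibroblasts and 125, 1617 and 735 immune cells in WT, mgR and mgR-LOS. Acta2, Pecam1, Dpt and Ptprc were each highest in their own class in every library. Each is a marker of its own gate, so this order follows from the gating and does not check it. Levels were summed UMIs of a class over the UMI total of that class, as CPM. Acta2 in non-SMC classes stood at 1.83% to 3.26% of its SMC level, and that share of a member's SMC level came to at most 21.3 CPM for any of the members. Because Acta2 is an SMC gate marker, cells past the SMC gate were kept out of the other classes, which limits this share. Carry-over in the other direction, into SMCs, was not estimated. The fibroblast markers summed to 3482, 4237 and 3208 CPM in SMCs of WT, mgR and mgR-LOS, against 32812.5, 29673 and 38375 CPM in fibroblasts. The part of fibroblast transcripts in the SMC levels of the members was not tested. A doublet caller marked 4.49%, 7.89% and 10.4% of the gated SMCs in the same order. Of the passing barcodes, 32, 52 and 68 sequences in the 3 libraries were also found in another library. In clustering without the Klf genes, SMCs of the 3 libraries stood apart: 1 cluster held 3041 WT cells against 39 mgR and 98 mgR-LOS cells, a second held 2354 mgR cells against 61 and 544, and another held 5072 mgR-LOS cells against 288 and 219. Library and condition cannot be told apart in such a design.

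Klf2, the flow-induced member, was highest in ECs. Its EC level was 1814 CPM (1725 to 1906) in WT, 1530 CPM (1473 to 1588) for mgR and 1248 CPM (1188 to 1310) in mgR-LOS. The EC levels did not overlap those of fibroblasts, which ranged from 716 to 878 CPM. SMCs ranged from 512 to 663 CPM and overlapped immune cells, at 425 to 524 CPM. The mean over libraries was 3.15 times higher in ECs than in immune cells.

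Klf4 was highest in fibroblasts and lowest in SMCs. Fibroblasts held 733 CPM (719 to 747) in WT, 1074 CPM (1062 to 1086) for mgR and 1127 CPM (1114 to 1140) in mgR-LOS. ECs held 465, 466 and 631 CPM in the same order. Immune cells held 300.1, 495 and 571 CPM and overlapped ECs. SMCs held 138 CPM (135 to 141) in WT, 255 CPM (251 to 260) for mgR and 279 CPM (276 to 283) in mgR-LOS. In point values even their highest library lay below the lowest immune library, WT, which rested on 340 UMIs from 125 cells.

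Klf6, an injury-response gene, was the only member whose lowest library in 1 class was at least 1.5 times every library of the other classes. Immune cells held 970.1 CPM in WT, 826 CPM in mgR and 901 CPM in mgR-LOS, against a highest level elsewhere of 474 CPM in mgR ECs. Of 15631 genes, 8.85% met that rule for immune cells, 5.09% for ECs, 4.96% for fibroblasts and 3.94% for SMCs, and 1 of 10 members lies below the sum of these 4 shares.

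The remaining members divided by class as follows. Klf3, a repressor that recruits CtBP, was highest in ECs, at 154 to 281 CPM, against 101 to 122 CPM in fibroblasts, and immune cells and SMCs overlapped below them. Klf7, a close relative of Klf6, had an order without any overlap, with 199.6 to 226 CPM in ECs, 129.9 to 169 CPM in fibroblasts, 103 to 125 CPM in SMCs and 64.2 to 76.4 CPM in immune cells. Klf9 was high in fibroblasts, at 391 to 583 CPM, and in SMCs, at 431 to 502 CPM, which overlapped, and lowest in immune cells, at 78.0 to 105 CPM. Klf10, the TGF-β-inducible early gene, overlapped between immune cells, fibroblasts and ECs, which together spanned 56.0 to 124 CPM, and was lowest in SMCs, at 17.8 to 55.6 CPM. Klf13 varied least, with all neighbours in its order overlapping between 109 and 210.4 CPM.

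Klf15 and Klf5 were scarce. Klf15 stood at 21.0, 23.1 and 37.1 CPM in SMCs and at 12.6, 15.7 and 19.5 CPM in fibroblasts of WT, mgR and mgR-LOS. In immune cells it had 0 UMIs in WT, which allows up to 2.65 CPM at 3 UMIs, and 13 and 18 UMIs in the other libraries. Klf5 was highest in fibroblasts, at 2.87, 4.60 and 5.97 CPM, from 42, 138 and 151 UMIs. In SMCs it stood at 0.715, 1.56 and 2.06 CPM, from 37, 74 and 145 UMIs. ECs held at most 3 Klf5 UMIs in any library, so Klf5 and Klf15 were compared between libraries in SMCs and fibroblasts alone.

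**Figure D1:**
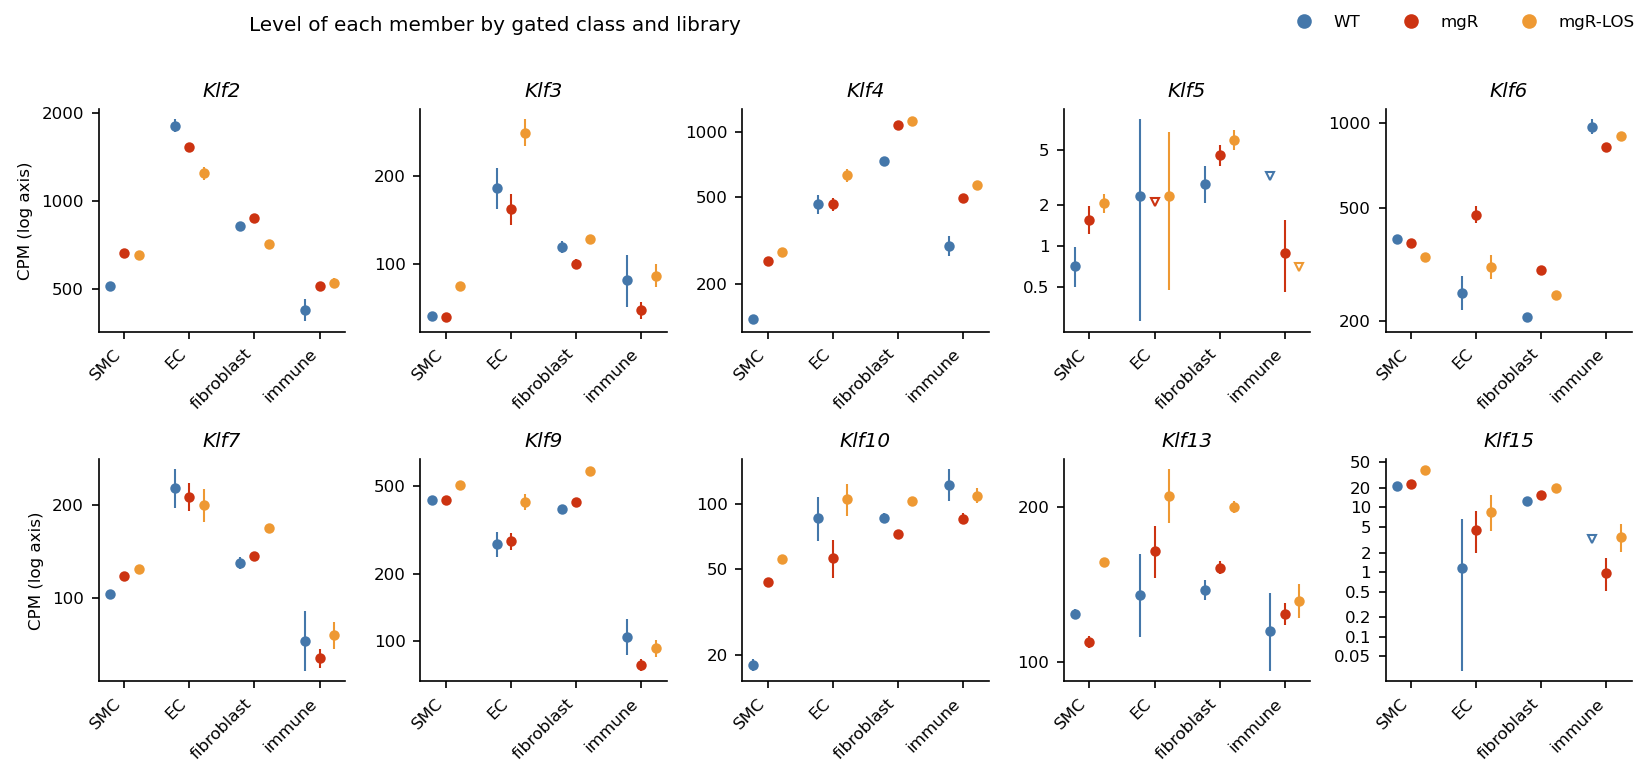
Level of each of the 10 members in CPM (log axis) by gated class, with 1 point per library (WT blue, mgR red, mgR-LOS orange), bars for the exact Poisson 95% interval and open triangles at the upper limit where no UMI was counted. Klf2 is highest in ECs, Klf4 in fibroblasts and Klf6 in immune cells in all 3 libraries, and Klf4 and Klf10 in SMCs lie lowest in WT.

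Of the 40 pairs of member and class, 36 had at least 50 UMIs over the libraries compared. Between mgR and WT, 7 pairs lay past 1.5-fold, against 17.3% of 41658 such pairs over all genes. Of these, 6 were higher in mgR (background 9.95%) and 1 was lower (background 7.33%). Between mgR-LOS and mgR, 5 pairs lay past 1.5-fold (background 13.7%), with 4 higher in mgR-LOS (background 7.73%) and 1 lower (background 6.01%). Between mgR-LOS and WT, 11 pairs lay past 1.5-fold, all higher in mgR-LOS (background 16.4% in either direction, 10.4% higher and 5.99% lower). For mgR against WT the 7 of 36 lie close to the background, and 11 of 36 for mgR-LOS against WT lie above it, without a test of that difference. The mgR library enters the first 2 comparisons and the WT library the first and the last, so the 3 counts are not independent.

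By class, SMCs held 3 members past 1.5-fold higher in mgR than in WT and none lower, against 8.16% and 7.98% of all SMC genes. In mgR-LOS against mgR it was 1 higher and none lower (9.72% and 4.88%), and in mgR-LOS against WT 4 higher and none lower (10.7% and 5.56%). ECs held 1 member higher and 1 lower in mgR (10.4% and 4.52%), 3 higher and 1 lower in mgR-LOS against mgR (6.71% and 7.99%), and 3 higher and none lower in mgR-LOS against WT (10% and 6.15%). In fibroblasts 1 member was higher in mgR and none lower (8.46% and 7.96%), none passed in mgR-LOS against mgR (6.43% and 5.16%), and 3 were higher in mgR-LOS than in WT and none lower (8.23% and 6.57%). In immune cells Klf4 alone passed, higher in mgR (13.8% and 7.56%) and in mgR-LOS (13.4% and 5.68%) than in WT, and no member passed between the mutant libraries (7.52% and 7.12%).

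Summed over the 10 members, SMCs held 1805 CPM in WT, 2088 in mgR and 2233 in mgR-LOS, and fibroblasts held 2637, 3160 and 3294 CPM. ECs held 3435, 3342 and 3420 CPM. The median mgR-LOS to WT ratio of the members was 1.27 in SMCs, 1.30 in ECs and 1.38 in fibroblasts, beside 1.03, 1.03 and 1.01 over all genes of those classes. For immune cells it was 1.04 over 8 measured members, beside 1.05 over all genes.

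**Figure D2:**
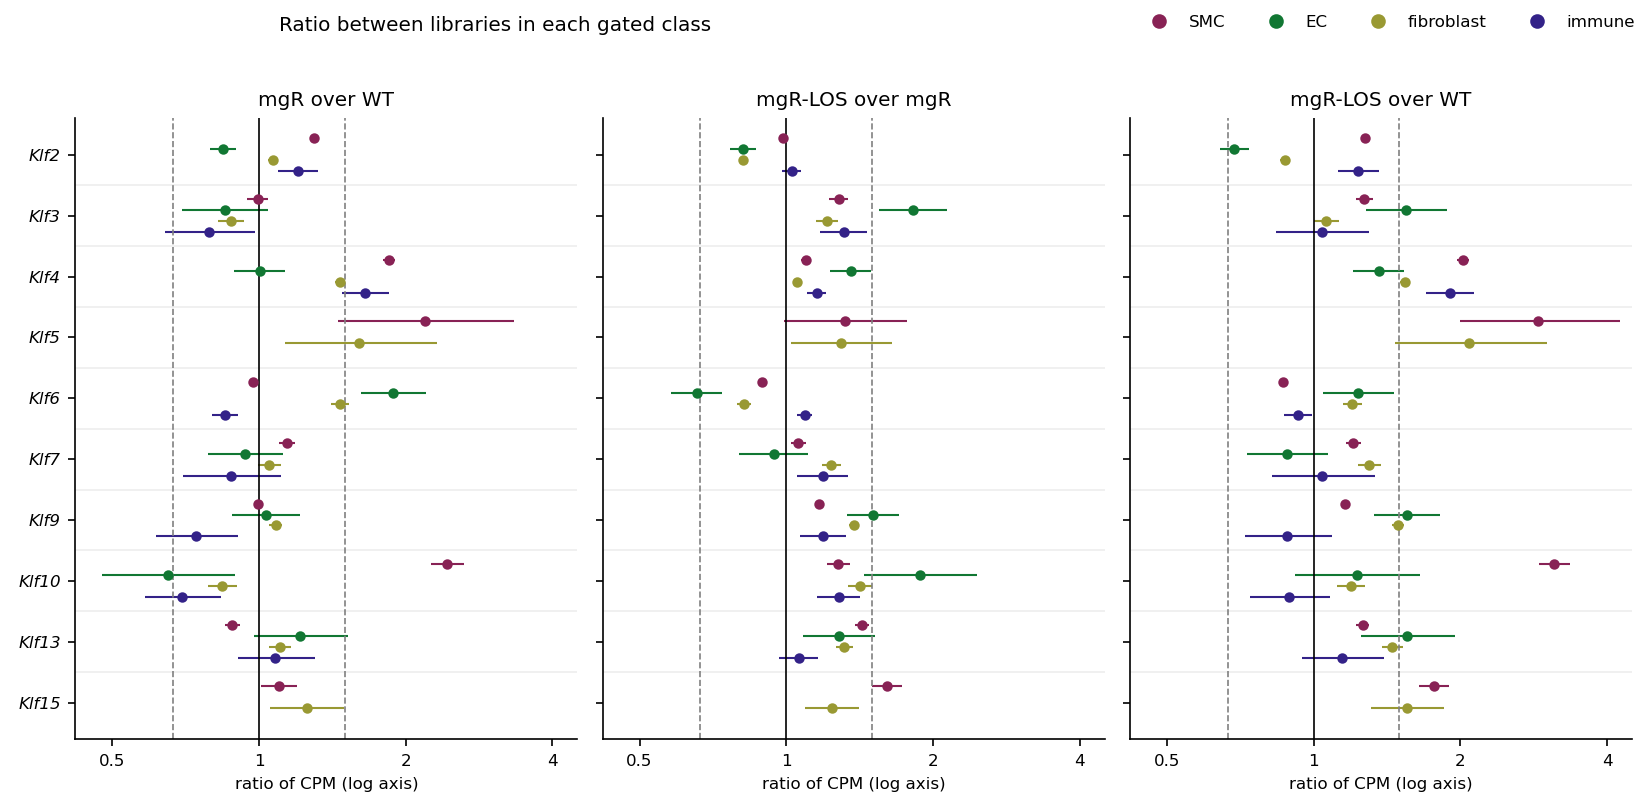
Ratio of CPM between 2 libraries (log axis) for each member in each gated class with at least 50 UMIs, with exact conditional binomial 95% intervals for counting error; dashed lines mark 1.5-fold in each direction. The widest departures are Klf10 and Klf5 in SMCs over WT, while Klf10 and Klf6 in ECs lie on opposite sides of 1 in the first 2 comparisons.

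Klf4, the member tied to phenotype switching, was higher in mgR than in WT in SMCs, immune cells and fibroblasts while its summed level in ECs was alike in both. The SMC ratio of mgR to WT was 1.85 (1.80 to 1.90), the immune ratio 1.65 (1.48 to 1.84), the fibroblast ratio 1.46 (1.43 to 1.497) and the EC ratio 1.00 (0.888 to 1.13). Losartan-treated mice did not have the WT level in these cells. The SMC ratio of mgR-LOS to mgR was 1.10 (1.07 to 1.12), and that of mgR-LOS to WT was 2.03 (1.97 to 2.08). In fibroblasts and immune cells mgR-LOS stood at 1.54 (1.503 to 1.57) and 1.90 (1.70 to 2.13) times WT. The fibroblast ratio lay between 1.28 and 1.48 under 5 of the alternative settings, and the immune ratio of mgR to WT between 1.42 and 1.46 under 3 of them, none past 1.5-fold. The immune ratio of mgR-LOS to WT was 1.07 in cells with 5 to 10% mitochondrial UMIs.

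More SMCs held Klf4, and those that held it held more. With every SMC thinned to 1000 UMIs, 10.5% of WT, 19.7% of mgR and 19.8% of mgR-LOS SMCs had a Klf4 UMI (46.4%, 69.1% and 59.0% before thinning). Pecam1, an endothelial gene that SMCs should lack, had a UMI in 2.0%, 0.289% and 0.965% of the same cells. Their median depths were 14372, 15136.5 and 8505.5 UMIs. Pecam1 is an EC gate marker, and cells past that gate were left out, which limits this share. It does not measure transcripts of fibroblasts, where Klf4 was highest, and their part in the SMC shares was not tested. Thinned to 5000 UMIs, SMCs with 4 or more Klf4 UMIs made up 4.16% (3.53% to 4.88%) in WT, 11.02% (9.92% to 12.2%) in mgR and 12.02% (11.3% to 12.8%) in mgR-LOS, leaving out 147, 132 and 1000 shallower cells. In fibroblasts the same share was 33.9%, 49.7% and 49.1%. ECs with any Klf4 UMI at that depth made up 58.0% (46.5% to 68.9%) in WT, 72.3% (64.5% to 79.1%) in mgR and 73.6% (64.1% to 81.7%) in mgR-LOS, from 81, 155 and 106 cells, and the mean was 2.20, 2.49 and 2.98 UMIs.

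**Figure D3:**
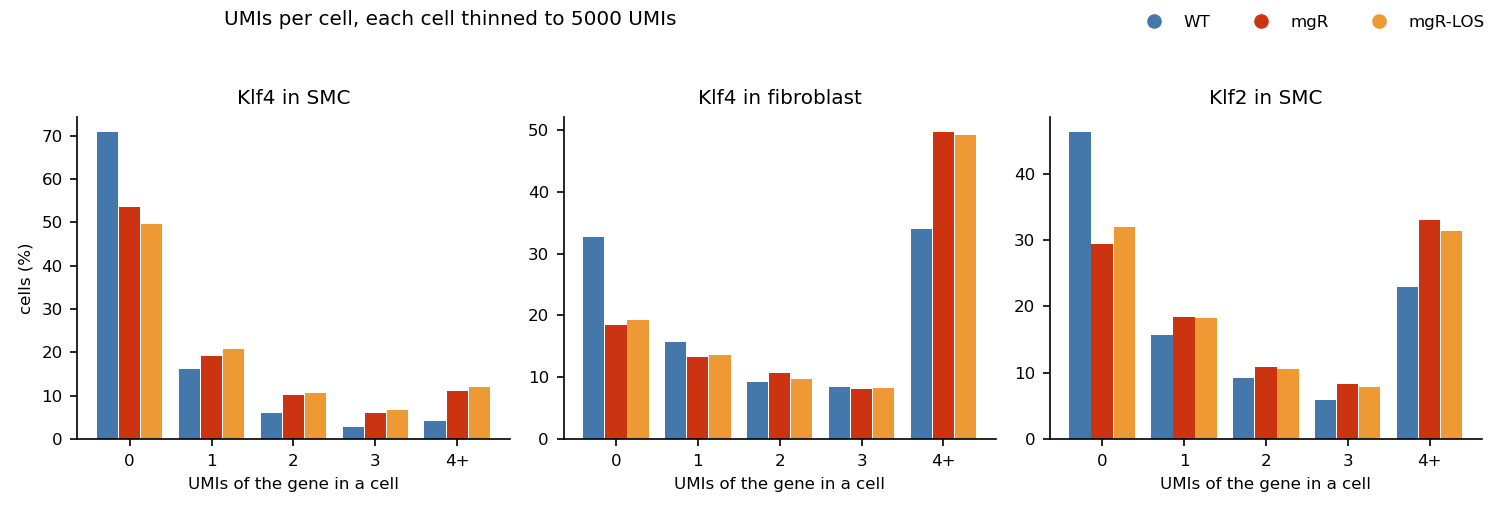
Percent of cells with 0, 1, 2, 3 or 4 and more UMIs of Klf4 in SMCs and fibroblasts and of Klf2 in SMCs, each cell thinned to 5000 UMIs, by library. WT bars are highest at 0 UMIs and lowest at 4 or more UMIs in all 3 panels, and the mgR and mgR-LOS bars lie close to each other.

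The Klf4 difference in SMCs moved with cell state measures that also differ between the libraries. The 18 immediate early genes summed to 17139 CPM in WT SMCs, 14744 in mgR and 15344 in mgR-LOS, with Fos at 4560, 3680 and 4469 CPM, Jun at 1382, 1090 and 1479 CPM, Egr1 at 1558, 1402 and 1485 CPM and Atf3 at 1389, 1259 and 872 CPM. Their sum was thus lower in mgR, where Klf4 was higher. In SMCs at or below the pooled median for these genes, Klf4 stood at 41.9, 103 and 125 CPM in WT, mgR and mgR-LOS, and in SMCs above it at 215, 426 and 431 CPM. WT was lowest in both parts. SMCs with up to 5% mitochondrial UMIs, 588 of the 3655 in WT, held 244, 330 and 334 CPM, so that the mgR to WT ratio there was 1.35, and that of mgR-LOS to WT 1.37, neither past 1.5-fold. SMCs with 5 to 10% held 119, 220 and 246 CPM. The median mitochondrial share of SMCs was 6.24% in WT, 5.76% in mgR and 5.33% in mgR-LOS, and the part of either measure in the Klf4 difference was not tested.

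**Figure D4:**
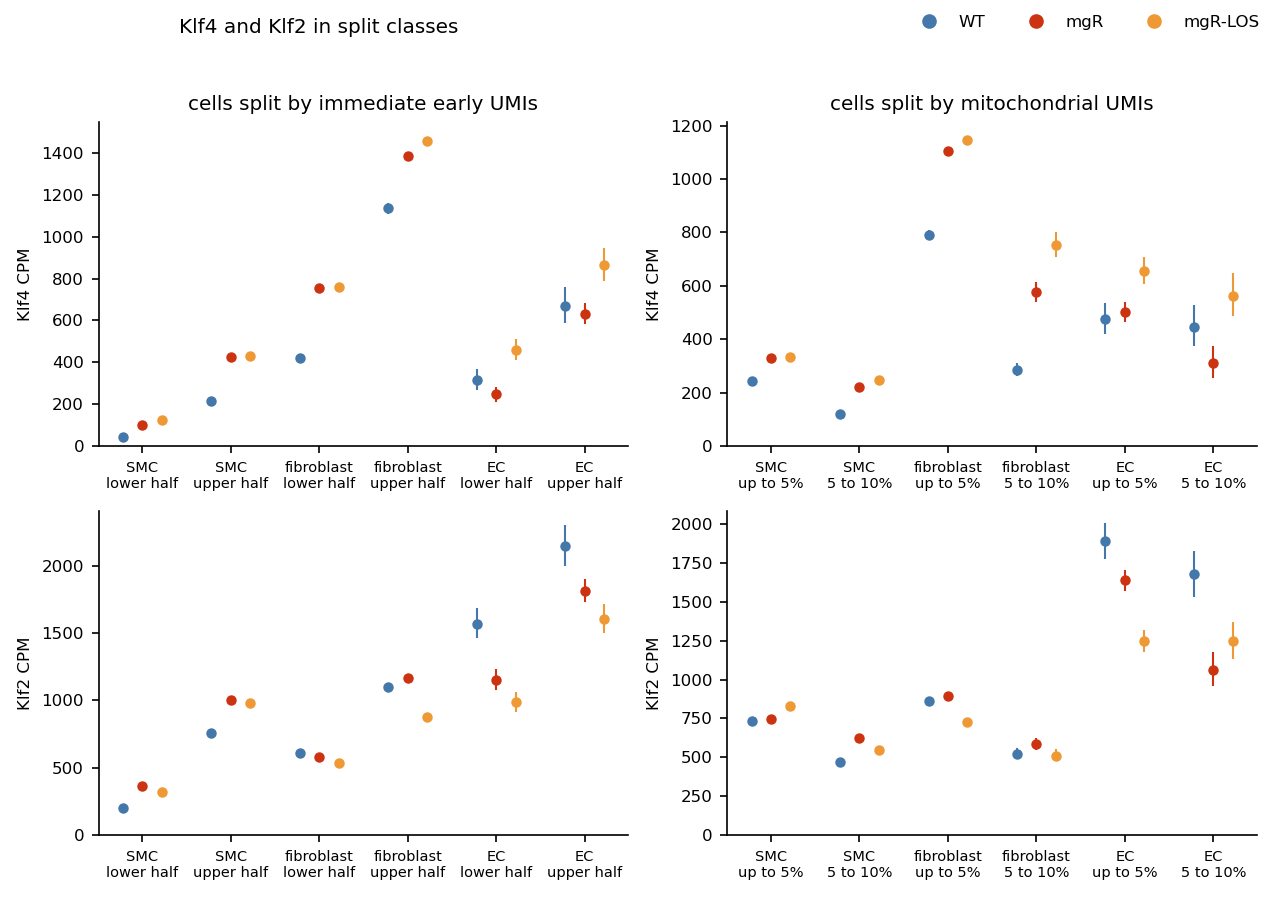
Klf4 (top) and Klf2 (bottom) in CPM for SMCs, fibroblasts and ECs split at the pooled class median of immediate early UMIs (left) and by mitochondrial UMIs (right), with 1 point per library and Poisson 95% intervals. In SMCs and fibroblasts, WT Klf4 is lowest in every part, and Klf2 in ECs is highest in WT in every part.

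Among cells that passed the SMC gate alone, Klf4 ran with the markers of modulated SMCs in WT but not in the mutant libraries. All 8 of those markers, such as Vcam1 and Timp1, lay past 1.5-fold higher in mgR SMCs than in WT SMCs (background 8.16%), with a median ratio of 4.34. In mgR-LOS against mgR, 6 of the 8 were lower (background 4.88%), with a median ratio of 0.42, while the Klf4 ratio was 1.10. Among mgR SMCs, Klf4 stood at 269 CPM in the 829 cells with 0 UMIs of these markers after thinning to 1000 UMIs, at 255 CPM with 1 or 2 UMIs and at 245 CPM in the 959 cells with 3 or more. Klf2 in the same cells stood at 782, 693 and 541 CPM. Among WT SMCs, Klf4 stood at 130.1, 147 and 178 CPM in the same order, and among mgR-LOS SMCs at 281, 276 and 284 CPM. The levels thus ran in opposite directions in WT and mgR. Lum, among these markers, is also a fibroblast gate marker, and WT fibroblasts held Klf4 at 733 CPM. The part of fibroblast transcripts in these SMC levels was not tested. SMCs that also passed the fibroblast or immune gate were left out here, so the levels do not cover them. In clustering, 315 mgR, 1 WT and 10 mgR-LOS cells formed a cluster of no class. Its median marker UMIs reached both the SMC and the fibroblast gate levels. Barcodes with SMC and fibroblast markers held Klf4 at 599, 610 and 737 CPM in WT, mgR and mgR-LOS. The 96 mgR barcodes with SMC, fibroblast and immune markers held it at 606 CPM.

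Genes tied to SMC differentiation, both regulators and structural genes, shifted unevenly beside Klf4. Of 6 measured genes, 2 were past 1.5-fold lower in mgR SMCs (background 7.98%) and none higher. Synpo2, an actin-binding protein of the contractile apparatus, stood at 573 CPM in WT, 278 in mgR and 443 in mgR-LOS, and Des, the muscle intermediate filament, at 175, 67.8 and 129 CPM. Myocd, the coactivator of contractile genes, stood at 116, 156 and 172 CPM, higher where Klf4 was higher.

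The summed Klf2 level in ECs was lower in mgR than in WT and lower again in mgR-LOS, without reaching 1.5-fold at either step. Over both steps it lay past 1.5-fold, at 0.628 to 0.666, under 4 of the alternative settings. The ratio of mgR to WT was 0.843 (0.792 to 0.898), that of mgR-LOS to mgR 0.816 (0.766 to 0.868) and that of mgR-LOS to WT 0.688 (0.641 to 0.738). In SMCs Klf2 had an mgR to WT ratio of 1.29 (1.27 to 1.32) and an mgR-LOS to mgR ratio of 0.986 (0.972 to 1.00). Its SMC ratio of mgR to WT was 1.01 in cells with up to 5% mitochondrial UMIs, at 736 and 747 CPM, and 1.78 in cells at or below the median for immediate early genes. In fibroblasts the mgR-LOS to mgR ratio was 0.816 (0.8004 to 0.831).

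The EC gate held several kinds of endothelium, told apart by 3 or more of 5 markers. Luminal ECs numbered 56, 96 and 95 and held Klf2 at 2040.0 CPM (1915 to 2171) in WT, 1362 CPM (1279 to 1449) for mgR and 1110.4 CPM (1033 to 1192) in mgR-LOS. Klf4 in these cells stood at 374, 377 and 512 CPM. Lymphatic ECs, from 11, 46 and 17 cells, held Klf2 at 2280.4, 1698 and 974 CPM and Klf4 at 1146, 602 and 583 CPM. Capillary ECs, from 12, 22 and 19 cells, ran the other way, with Klf2 at 632, 1578 and 1453 CPM. The WT values of lymphatic and capillary ECs rest on 11 and 12 cells, which share 1 library. Cell to cell spread is not in the counting interval. Lymphatic ECs made up 11 of 106 gated ECs in WT, 46 of 212 in mgR and 17 of 175 in mgR-LOS.

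**Figure D5:**
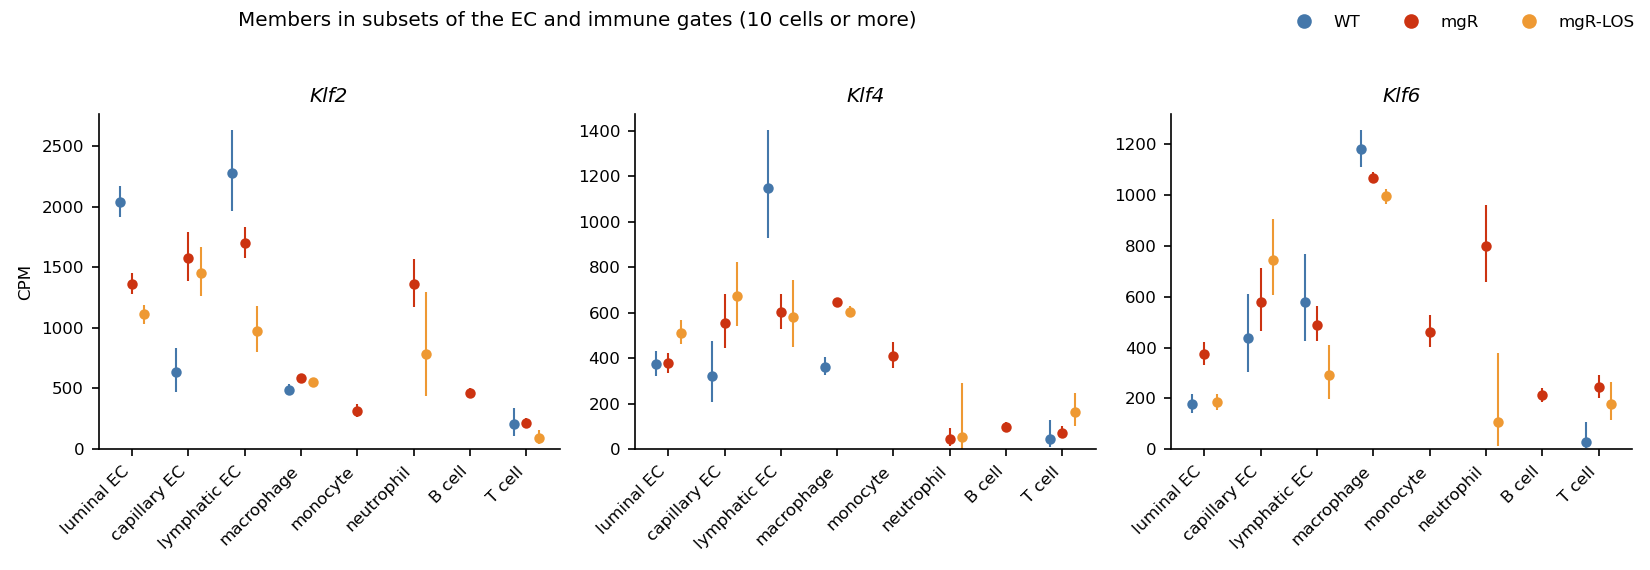
Klf2, Klf4 and Klf6 in CPM in subsets of the EC and immune gates with at least 10 cells, with 1 point per library and Poisson 95% intervals. Klf2 is highest in WT and lowest in mgR-LOS in luminal and lymphatic ECs and is high in mgR neutrophils, Klf4 is low in neutrophils, B cells and T cells, and Klf6 is highest in macrophages.

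Other genes of the flow response did not share a direction with Klf2. Of 10 flow-induced endothelial genes, 3 were past 1.5-fold higher in mgR ECs (background 10.4%) and 3 lower (background 4.52%), with a median ratio of 1.04 beside 1.05 over all genes. Pi16 stood at 187 CPM in WT, 117 in mgR and 60.6 in mgR-LOS, in the order of Klf2. Fibroblast markers in the EC gate summed to 1719, 1268 and 2391 CPM, and the part of fibroblast transcripts in the Pi16 level was not tested. Nos3, the endothelial nitric oxide synthase, stood at 106 CPM in mgR and 179 in mgR-LOS, and Eng, a TGF-β coreceptor, at 792, 609 and 1130 CPM. Of 9 genes of the MEK5-ERK5-MEF2 pathway upstream of Klf2, 7 were measured and 1 lay past 1.5-fold, Mef2c, at 88.5 CPM in WT, 155 in mgR and 102 in mgR-LOS. Mef2a stood at 178, 168 and 224 CPM and Mef2d at 54.7, 51.5 and 53.6 CPM. These levels cover the whole EC gate, whose share of lymphatic ECs differed between libraries. The part of that make-up in the levels was not tested.

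Endothelial activation genes, which Klf2 and Klf4 are known to hold down, were higher in mgR ECs, 7 of 8 measured past 1.5-fold (background 10.4%) and none lower, with a median ratio of 1.57. Vcam1 stood at 507 CPM in WT and 777 in mgR, and Selp at 120, 210 and 78.4 CPM in WT, mgR and mgR-LOS. In ECs the mgR to WT ratio was 0.843 for Klf2 and 1.00 for Klf4. Activation genes were counted over the whole EC gate, whose make-up differed between libraries. Their link to either member was not tested. In mgR-LOS against mgR, 4 of 8 were lower (background 7.99%) and none higher, while Klf2 was lower as well and Klf4 had a ratio of 1.36 (1.23 to 1.495).

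Klf2 in ECs kept the order WT, mgR, mgR-LOS in ECs at or below the median for immediate early genes, at 1569, 1152 and 985 CPM, and above it, at 2146, 1814 and 1604 CPM. The immediate early genes summed to 5695, 7570 and 6634 CPM in ECs. In ECs with 5 to 10% mitochondrial UMIs, 42, 50 and 60 cells, Klf2 stood at 1677, 1064 and 1247 CPM, so that the mgR-LOS to mgR ratio was 1.17 there and 0.762 in the others.

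Over all gated SMCs, Klf10 had the widest ratios to WT of the 10 members, though the wider intervals of the Klf5 ratios held them. Klf10 stood at 17.8 CPM (16.7 to 19.0) in WT, 43.5 CPM (41.6 to 45.4) for mgR and 55.6 CPM (53.9 to 57.4) in mgR-LOS. Its ratios to WT were 2.44 (2.25 to 2.64) and 3.12 (2.90 to 3.35). ECs held 86.2, 56.0 and 106 CPM from 74, 99 and 136 UMIs, with a ratio of mgR to WT of 0.650 (0.476 to 0.891) and of mgR-LOS to mgR of 1.88 (1.44 to 2.47). The mgR to WT ratio was 0.697 to 0.723, and not past 1.5-fold, under 3 alternative settings. In ECs thinned to 5000 UMIs the mean was 0.333 Klf10 UMIs in WT and 0.323 in mgR, from 81 and 155 cells. Of these cells 25.9% and 27.1% had any, so the lower EC level was not seen in this single random draw of few UMIs. Without thinning, the mgR to WT ratio was 0.572 to 0.723 over the 14 alternative settings that measured it. Fibroblasts held 86.6, 72.9 and 103 CPM and immune cells 124, 86.0 and 110.0 CPM, in each case lowest in mgR. In no class but SMCs was the summed Klf10 level higher in mgR than in WT. In SMCs at or below the median for immediate early genes Klf10 stood at 10.5, 16.8 and 29.7 CPM, and above it at 23.7, 73.3 and 81.0 CPM. At or below that median the mgR to WT ratio was 1.59 for Klf10 and 2.45 for Klf4.

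TGF-β early genes in SMCs were higher in mgR in 5 of 7 measured (background 8.16%), with none lower and a median ratio of 1.90. Bhlhe40 stood at 56.4, 149 and 55.2 CPM in WT, mgR and mgR-LOS, and Id1 at 141, 334 and 369 CPM. Klf10 stayed with Id1, high in both mutant libraries, and apart from Bhlhe40, which was lower in mgR-LOS than in mgR. Only these 2 of the 7 measured genes are set beside Klf10 here. The part of TGF-β in its level was not tested.

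Klf6 was higher in mgR ECs than in ECs of either other library. It stood at 252 CPM (219 to 287) in WT, 474 CPM (443 to 507) for mgR and 311 CPM (281 to 343) in mgR-LOS, with an mgR to WT ratio of 1.89 (1.62 to 2.20) and an mgR-LOS to mgR ratio of 0.655 (0.580 to 0.739). The mgR-LOS to WT ratio was 1.23 (1.04 to 1.46). The mgR-LOS to mgR ratio was not past 1.5-fold under 5 of the alternative settings, which gave 0.670 to 0.845. In luminal ECs it stood at 176, 376 and 184 CPM. Fibroblasts followed the same order more narrowly, at 206, 303 and 248 CPM. SMCs did not, at 388, 377 and 337 CPM. The 8 immune markers, whose cells hold most Klf6, summed to 317, 203 and 91.6 CPM in ECs, lowest in mgR-LOS and highest in WT, against 21909 CPM or more in immune cells. The 5 mural cell markers summed to 33.8, 230.3 and 351 CPM in ECs, the SMC markers to 1170.2, 1425 and 1671 CPM and the fibroblast markers to 1719, 1268 and 2391 CPM, and their part in the EC levels of the members was not tested.

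Klf5, tied to smooth muscle growth, was low but higher in both mutant libraries. The mgR to WT ratio was 2.19 (1.45 to 3.34) in SMCs and 1.60 (1.13 to 2.32) in fibroblasts, and the mgR-LOS to WT ratio 2.88 (1.997 to 4.26) and 2.08 (1.47 to 3.01). The fibroblast ratio of mgR to WT was 1.41 with classes from clusters and 1.22 in cells at or below the median for immediate early genes. At under 6 CPM in every class, Klf5 was seen in at most 4.06% of the cells of any class and library without thinning.

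Klf15 and Klf9, the glucocorticoid-induced members, stood near the WT level in mgR SMCs and higher in mgR-LOS SMCs. Klf15 in SMCs had an mgR to WT ratio of 1.10 (1.01 to 1.20) and an mgR-LOS to mgR ratio of 1.61 (1.497 to 1.73), which was 1.36 in SMCs above the median for immediate early genes. Klf9 stood at 432, 431 and 502 CPM in SMCs, 391, 423 and 583 CPM in fibroblasts and 272, 281 and 423 CPM in ECs, and its mgR-LOS to mgR ratio of 1.505 (1.33 to 1.70) was past 1.5-fold in ECs, though not under 7 of the alternative settings, which gave 1.41 to 1.499. Klf9 was thus highest in mgR-LOS in these classes, and Klf15 in SMCs and fibroblasts. In immune cells Klf9 was highest in WT, at 105 CPM, with an mgR-LOS to WT ratio of 0.884 (0.722 to 1.09).

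Other glucocorticoid-induced genes were uneven. In SMCs, 4 of 10 were past 1.5-fold higher in mgR-LOS than in mgR (background 9.72%) and 1 lower (background 4.88%), with a median ratio of 1.09 beside 1.05 over all genes. Zbtb16, a classical glucocorticoid target, stood at 32.0 CPM in WT, 16.4 in mgR and 139 in mgR-LOS SMCs and at 9.32, 5.09 and 73.8 CPM in ECs. Sgk1 ran against it in SMCs, at 101, 144 and 85.8 CPM, and Mt1 stood at 1909, 1059 and 969 CPM. Among 12 clock genes, which also shape Klf9 and Klf15 by the hour, none was past 1.5-fold higher and 2 were lower in mgR-LOS SMCs than in mgR (background 9.72% and 4.88%). Dbp stood at 144, 224 and 147 CPM and Nr1d1 at 203, 183 and 248 CPM. The hour of dissection is not given in the sources used here, and its part in these levels was not tested.

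Klf3 and Klf13 shared the mgR-LOS side. Klf3 in ECs stood at 182, 154 and 281 CPM, an mgR-LOS to mgR ratio of 1.82 (1.55 to 2.14). Klf13 in ECs stood at 135, 164 and 210.4 CPM, an mgR-LOS to WT ratio of 1.56 (1.25 to 1.95) that was 1.41 and 1.47 under 2 alternative settings, and in SMCs at 124, 109 and 156 CPM. Over all gated cells Klf7 was past 1.5-fold in no class, with ratios between 0.877 and 1.30 over the 3 comparisons. In immune cells at or below the median for immediate early genes its mgR to WT ratio was 0.636. Above that median its mgR-LOS to WT ratio was 1.77. In fibroblasts with 5 to 10% mitochondrial UMIs its mgR-LOS to WT ratio was 1.57.

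Immune cells differed widely among themselves. Macrophages, 92, 961 and 590 cells, held Klf6 at 1182, 1068 and 995 CPM, Klf4 at 362, 648 and 605 CPM and Klf2 at 489, 590 and 551 CPM. The Klf4 difference between WT and mgR was thus present within macrophages. Neutrophils, 59 in mgR, held Klf2 at 1359 CPM (1173 to 1565) and Klf4 at 42.5 CPM (15.6 to 92.4). B cells, 133 in mgR, held Klf2 at 465 CPM and Klf4 at 98.7 CPM, and T cells, 95 in mgR, held Klf2 at 212 CPM and Klf4 at 72.8 CPM. Klf2 drives lymphocyte exit through S1pr1. In immune cells S1pr1 stood at 62.7, 50.2 and 55.7 CPM and Ccr7 at 9.71, 55.5 and 40.0 CPM, and 2 of 5 such genes were past 1.5-fold higher in mgR (background 13.8%) and 1 lower (background 7.56%). These levels cover the whole immune gate, whose make-up differed between libraries. Macrophages were 92 of 125 cells in WT, 961 of 1617 in mgR and 590 of 735 in mgR-LOS. The trafficking genes were not compared within lymphocytes alone.

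In SMCs, fibroblasts and immune cells, Klf2 and Klf4 were found in the same cells a little more often than their single shares give. In SMCs thinned to 5000 UMIs, 20.6% (19.3% to 21.96%) of WT, 36.8% (35.1% to 38.6%) of mgR and 39.8% (38.7% to 41.0%) of mgR-LOS cells had a UMI of both, beside products of the single shares of 15.6%, 32.7% and 34.2%. In fibroblasts both were found in 55.3%, 65.8% and 64.0% of cells, beside 51.1%, 62.3% and 61.4%. Immune cells had both in 26% (17.7% to 35.7%), 40.7% (37.9% to 43.4%) and 42.3% (37.9% to 46.7%) of cells. The products there were 20.5%, 35.9% and 37.3%, and the WT interval held its product. In ECs both were found in 55.6% (44.1% to 66.6%), 67.7% (59.8% to 75.0%) and 70.8% (61.1% to 79.2%) of cells. These EC intervals held the products of the single shares, at 51.6%, 63.9% and 66.6%.

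Over the 12 points of 4 classes in 3 libraries, which share depth and pool within a library, Fis1 (Pearson r = 0.975), 4931406P16Rik and Pthlh had the log2 levels most like Klf2 among 5222 genes. Tm9sf4 (0.938), Epb41l2 and Nucb2 were most like Klf4, Vcan (0.890), Podn and Smarcb1 most like Klf5, and Golga3 (0.986), Atp1b2 and Pdxdc1 most like Klf15.

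Of the 7 other Klf genes in the files, Klf14 and Klf17 had at most 3 UMIs in any class and library. Klf11, like Klf10 a TGF-β-inducible gene, stood at 5.47, 8.09 and 10.6 CPM in SMCs of WT, mgR and mgR-LOS, and Klf12 at 11.2, 19.1 and 11.8 CPM. Klf11 ran in the order of Klf10 in SMCs, and Klf12 did not.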

How the data were processed

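Per the labels, each arm's aortas were pooled, digested and run on the 10x Genomics Chromium 3′ v3.1 kit. The authors aligned reads to mm10 with Cell Ranger and deposited raw UMI counts per gene and barcode. The submitters' processing notes name version 6.0.1, and the matrix headers name 5.0.1 for WT and mgR and 6.0.1 for mgR-LOS. Barcode and gene name files, of no unit, were used as deposited.

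Kept cells had between 600 and 5000 detected genes, with mitochondrial UMIs making up no more than 10%. A cell entered a gate with marker UMIs per 10000 of at least 100 (SMC), 15 (EC), 80 (fibroblast) or 20 (immune) and at least 5, 4, 5 or 4 of 8 markers, limits set after the data were seen. Cells in 2 or more gates were left out, which also took out some doublets; a doublet caller was an alternative. UMIs were summed per class and library and scaled per 1000000 UMIs (CPM), with exact Poisson intervals. Ratios had exact conditional binomial intervals, and shares exact Clopper-Pearson intervals, at 95%. These cover counting error only. With 1 library a group there was no test, a pair counted past 1.5-fold needed 50 UMIs over both libraries, and the limit for a count of 0 was 3 UMIs. Subsets needed 3 markers of their list. Named were all members, the 2 highest and 2 lowest ratios of each list at 50 CPM or more, Fos, Jun, Egr1 and Atf3, the 3 genes most like Klf2, Klf4, Klf5 and Klf15, and label checks; examples with no extreme ratio were chosen after their values were seen. Not every gene under this rule is reported here. Members and lists were chosen with earlier results of these data known. The list symbols Mkl1, Mkl2 and Ctgf matched no row and were not used here. Cell surveys used scanpy 1.11.5 and scikit-learn 1.9.0, in Python 3.11.15 with scipy 1.17.1. The code was tested on simulated data. Alternatives covered the gene and mitochondrial limits, stricter gates, classes from clusters, cells of 2 or more classes kept, doublets or shared barcodes left out, scaling, a mean over single cells, cells with at least 5000 UMIs and a split at the class median of immediate early UMIs.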

Additional observations from a re-analysis of the deposited data

Results flagged for a closer look

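Klf2 lay on opposite sides of 1 in SMCs and ECs over all gated cells. Its mgR to WT ratio was 1.29 in SMCs and 0.843 in ECs, 1.54 times apart, and its mgR-LOS to WT ratio was 1.28 in SMCs and 0.688 in ECs, 1.86 times apart. In SMCs with up to 5% mitochondrial UMIs the mgR to WT ratio was 1.01, and in SMCs at or below the median for immediate early genes 1.78.

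Klf6 and Klf10 did the same between other classes. The mgR to WT ratio of Klf6 was 1.89 in ECs and 0.851 in immune cells, 2.22 times apart, and its mgR-LOS to mgR ratio was 1.09 in immune cells and 0.655 in ECs, 1.67 times apart. Within macrophages alone, however, the Klf6 level was lower in mgR-LOS than in mgR, the same direction as in ECs. The mgR to WT ratio of Klf10 was 2.44 in SMCs and 0.650 in ECs, 3.75 times apart. The EC ratio of Klf10 was 0.697 to 0.723 under 3 alternative settings, and ECs thinned to 5000 UMIs had a mean of 0.333 Klf10 UMIs in WT and 0.323 in mgR. With 1 library a group, none of these differences between classes was tested.

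Barcodes that entered no gate and so no comparison held Klf4 as well. Their Klf4 level was 662 CPM (628 to 698) in the 249 such barcodes of mgR, against 246 CPM in 75 of WT and 273 CPM in 219 of mgR-LOS.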

How the results depend on the processing

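No paired analysis was possible because each group is 1 pooled library, and for the same reason no replicate could be left out. Of 23 ratios past 1.5-fold, no alternative turned a direction. All 23 were kept with a minimum of 200 genes, without called doublets, without mitochondrial, ribosomal protein and globin genes, and with no filter on low counts, 16 with at most 5% mitochondrial UMIs and 14 in cells with 5 to 10%, a setting chosen after seeing the data. The mgR to WT count of 7 pairs was 4 with at most 5% mitochondrial UMIs and 12 in cells at or below the median for immediate early genes. The mgR-LOS to mgR count of 5 was 3 with stricter gates, and 10 and 2 in cells below and above that median. Klf4 in SMCs, mgR to WT, was 1.35 with at most 5% mitochondrial UMIs, 1.92 with cells of 2 or more classes kept, 1.71 without doublets, 2.01 as a mean over single cells, and 2.45 and 1.98 below and above the median. Its mgR-LOS to mgR ratio was 1.01, 1.12, 1.05, 1.01, 1.21 and 1.01 with at most 5%, without doublets (1.12 with classes from clusters too), with median-ratio scaling, over single cells, and below and above the median. Klf2 in ECs, mgR to WT, was 0.734 below the median and 0.635 at 5 to 10%. Its mgR-LOS to mgR ratio was 0.762 with at most 5%, 0.884 above the median and 1.17, on the other side of 1, at 5 to 10%. The cause was not tested. Depth limits Klf5 everywhere and Klf15 outside SMCs and fibroblasts.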

Other observations

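Barcodes with markers of more than 1 class were left out of every comparison above. Those with SMC and fibroblast markers numbered 86 in WT, 315 in mgR and 538 in mgR-LOS and held Klf4 at 599, 610 and 737 CPM and Klf2 at 1296, 1083 and 903 CPM. Those with SMC, fibroblast and immune markers numbered 0, 96 and 3, and the 96 of mgR held Klf4 at 606 CPM, Klf2 at 646 CPM and Klf6 at 560 CPM. A doublet caller marked 52.6%, 36.1% and 59.7% of all barcodes with markers of 2 or more classes in WT, mgR and mgR-LOS.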
